A study of Mus musculus with 4 samples.

Results

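Axon guidance ligands and receptors are described here in cultured mouse cortical astrocytes. They are the ephrins and their Eph receptors, the semaphorins with plexins and neuropilins, the slits with robos, and the netrins with UNC5 receptors and Dcc. Members were taken by gene symbol among the protein-coding genes of the count table, and 69 of its 45703 genes qualified. The choice used no expression value.

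The study profiled poly-A RNA of 4 cultures, numbered 1 to 4 in the labels, that form a single group with no contrast. The animals were wild-type mice of the outbred CD-1 strain, taken on postnatal day 4. Glia dissociated from frontal cortex grew in serum medium with B27 and 10 ng/ml EGF, were replated after 6 days in vitro, and were lysed 3 days after that, following 1 h in Ham's medium free of serum. The series calls the cultures biological replicates, and the labels name neither the mice behind each culture nor a sorting step or batch, so errors and p-values cover the spread between these libraries only.

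Libraries held 37300485 to 42369109 counts. Levels are given as counts per 1000000 counts of the library (CPM) and, where genes are compared, as CPM per kilobase of exon (RPKM), each as mean ± SD over the 4 cultures unless values of single cultures are listed. Cultures 1 to 3 were far closer to each other than to culture 4: the median biological coefficient of variation (BCV, edgeR) of 64 members was 0.111 over all cultures and 0.0252 without culture 4, against 0.0941 and 0.0255 over all genes tested. For pairs among cultures 1 to 3 the mean chi-square per gene was 2.03 to 3.01, above the 1 that counting noise gives, and for pairs with culture 4 it was 36.4 to 37.9 (over genes whose counts in both libraries sum to 20 or more). All 4 were kept as separate samples, as labelled; such values cannot tell separate cultures from separate libraries of 1 culture. The astrocyte label was checked on 10 markers, and all 10 were expressed, led by Slc1a3 (2601 ± 78.6 CPM), Gfap (1339 ± 373 CPM) and Aqp4 (907 ± 143 CPM). Markers of other cells were present too, among them the smooth muscle actin gene Acta2 (1929 ± 53.3 CPM), Olig1 of the oligodendrocyte lineage (1310.4 ± 71.0 CPM) and the neuronal genes Map2 (214 ± 9.16 CPM) and Stmn2 (148 ± 4.73 CPM). Other markers of the same lists were near 0, with Rbfox3, Slc17a7 and Snap25 of neurons at 0.0734, 0.148 and 0.514 CPM. Sox10 of oligodendrocyte precursors was at 0.0554 CPM. Of 9 mural markers, Acta2 among them, 5 were expressed, while Vtn, Kcnj8, Abcc9 and Myh11 were at 0.0120, 0.0555, 0.0865 and 0.645 CPM. Values are those of the whole dish. In such bulk samples fewer cells of a type and less RNA per cell cannot be told apart.

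Guidance cues steer growing axons by attracting or repelling the growth cone, and the same proteins shape cell borders, blood vessels and glial migration. Ephrins are held in the membrane, ephrin-A by a lipid anchor and ephrin-B by a transmembrane segment, and meet Eph receptor tyrosine kinases on neighbouring cells, with signals that run both ways. Class 3 semaphorins are secreted and act mostly through neuropilin and plexin-A complexes, while most other classes are bound to the membrane and bind plexins directly. Slits are secreted repellents read by Robo receptors. Netrin-1 attracts through DCC and repels through UNC5 receptors. In the brain astrocytes are known sources of several of these cues and also carry their receptors.

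Of the 69 genes, 57 (82.6%) were expressed, defined as at least 1 CPM in every library, where 58.1% of all protein-coding genes met that level. Without culture 4 the count was 58. Per length the level was modest, with a median of 3.83 RPKM over expressed members against 8.04 RPKM over all expressed protein-coding genes. The median exon length was 6379 bases for members against 2907 for protein-coding genes, and a level in CPM is easier to reach for longer genes. With RPKM of at least 1 in its place, 45 of the 69 members and 51.3% of all protein-coding genes passed. Plexin and netrin genes stood above every other class in summed level, at 139 to 151 RPKM and 108 to 125 RPKM over the 4 cultures. The next classes, class 3 semaphorins, ephrin-B ligands and EphB receptors, summed to 28.9 to 36.4 RPKM, 30.1 to 34.4 RPKM and 29.9 to 32.6 RPKM. Slits and robos had the lowest mean sums apart from DCC, at 7.42 to 9.36 RPKM and 4.56 to 5.03 RPKM.

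**Figure D1:**
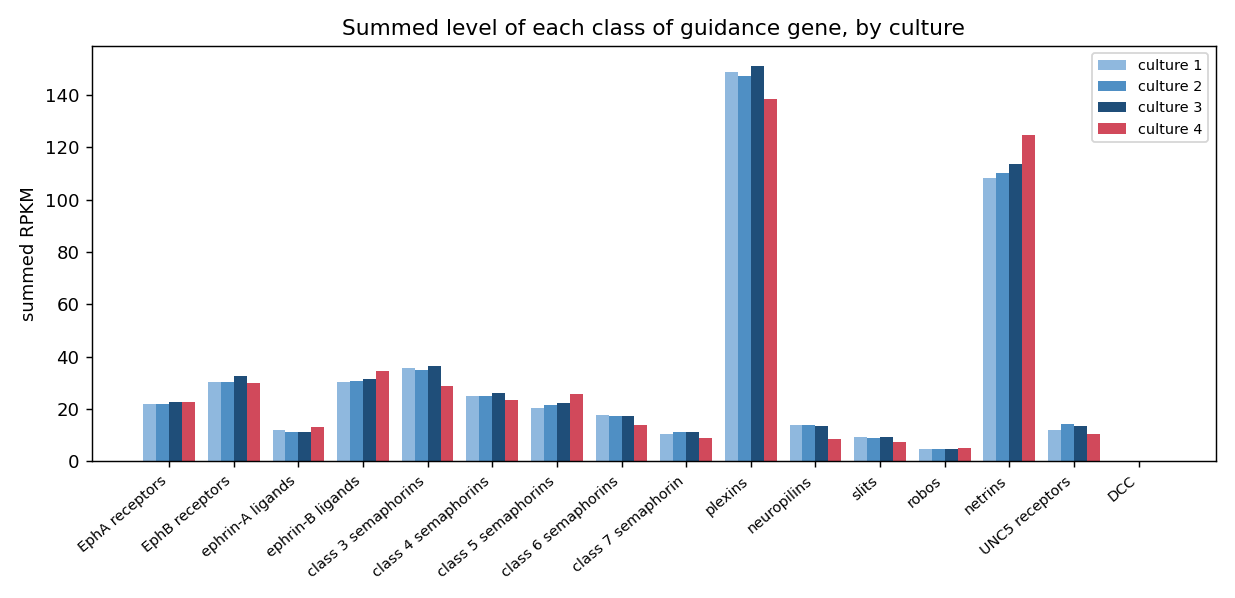
Summed RPKM (vertical axis, linear from 0) of each class of guidance gene, with 1 bar per culture. Plexins and netrins stand above the rest in all 4 cultures, and the neuropilin bar of culture 4, at 8.64 RPKM, is below those of cultures 1 to 3, at 13.4 to 14.0 RPKM.

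The 12 members that missed the level were Epha1, Epha7, Epha8, Epha10, Efna1, Sema3g, Plxnb3, Robo3, Robo4, Ntn5, Unc5a and Dcc. Efna1 and Epha7 missed it in a single culture each, at 0.858 CPM in culture 3 and 0.968 CPM in culture 4, and had means of 1.38 and 1.37 CPM. Epha8 had 1 count in all 4 libraries together, under the floor of 3 counts below which no level is given. Sema3g, Epha10, Robo3 and Robo4, the robo of endothelial cells, had between 10.0 and 16.0 counts in all and means of 0.0628 to 0.101 CPM. The remaining 5 lay between 0.395 CPM for Epha1 and 0.706 CPM for Plxnb3, a plexin known from oligodendrocytes. Counts of 26 members, Plxnb2 and Ntn1 among them, were not whole in some library, so reads that also match another gene may be divided there, and such values are uncertain to that extent.

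**Figure D2:**
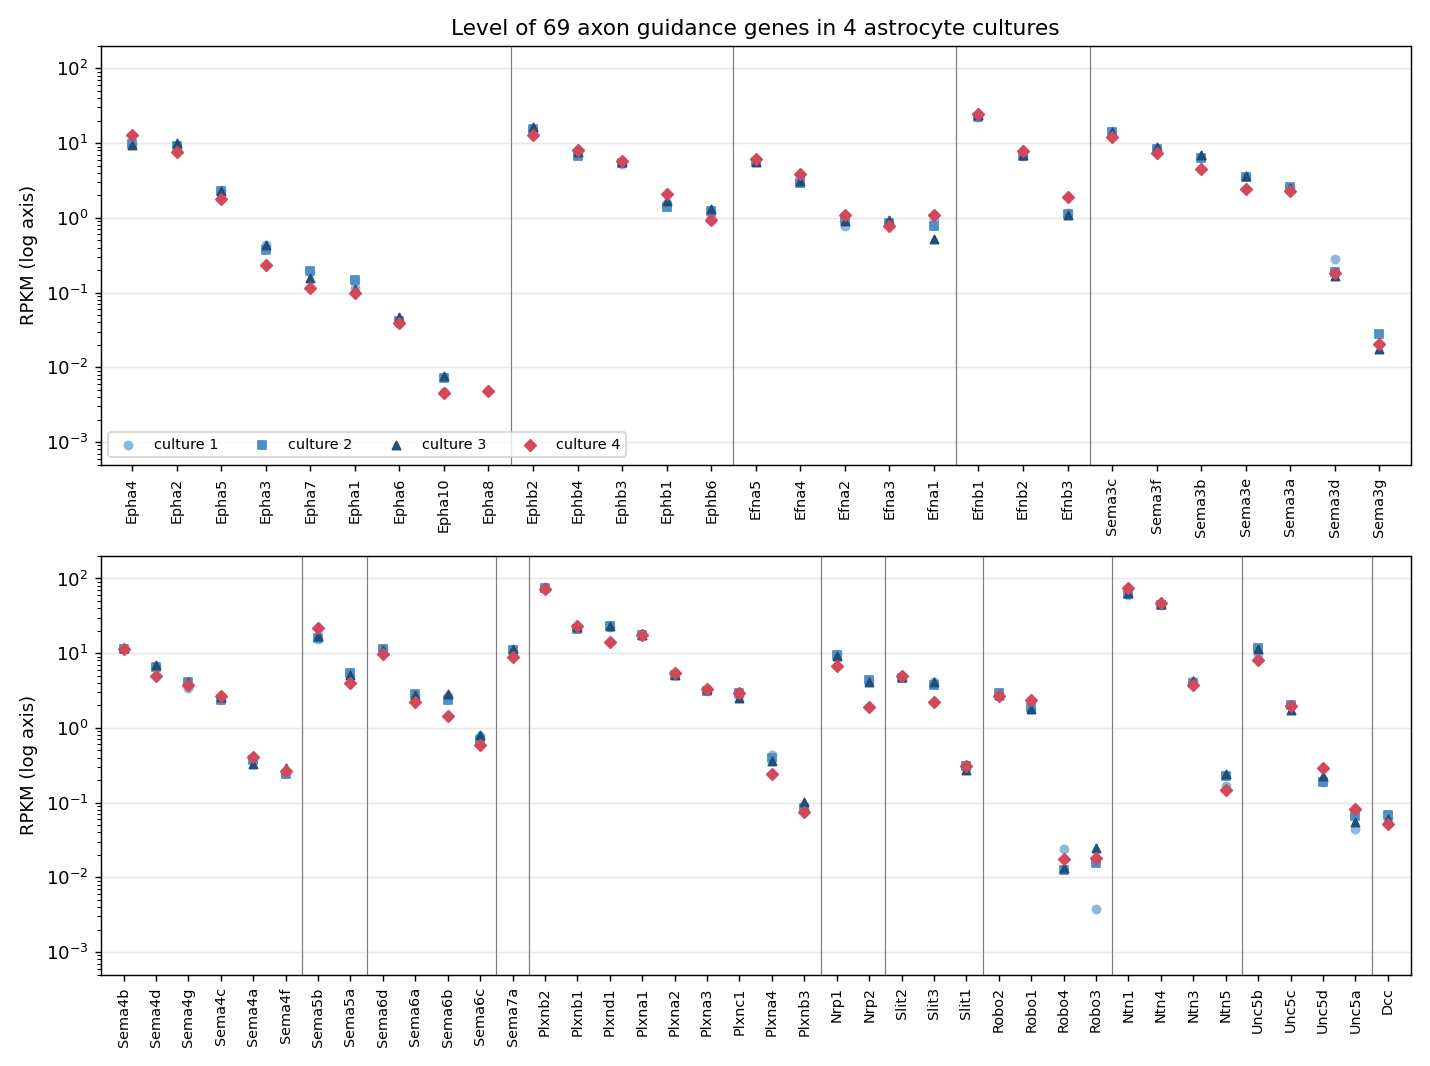
RPKM of each of the 69 genes (vertical log axis) with 1 point per culture, genes grouped by class and ordered by mean within it. A count of 0 has no point. Points of the 4 cultures mostly overlap, while levels within a class are far apart, from 10.5 RPKM for Epha4 down to Epha8, which has a point in culture 4 alone.

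The ephrin ligands were led by the B class. Efnb1 (GeneID 13641, chromosome X, 99136061 to 99149022, plus strand, build GRCm38.p6 here and below), which encodes ephrin-B1, had 74.4, 76.1, 78.8 and 83.2 CPM in cultures 1 to 4, or 23.3 ± 1.14 RPKM. Efnb2, the ligand known for arterial identity, had 74.3, 74.4, 75.7 and 85.1 CPM, or 7.08 ± 0.475 RPKM. Their CPM were close, and the combined exons of Efnb2 are 10924 bases long against 3358 for Efnb1. Per length Efnb1 was 3.29-fold above Efnb2 (log2 ratio 1.72 ± 0.04 (SE), edgeR adjusted p = 2.97e-08; higher in 4 of 4 libraries). This lead followed the length used: it was 1.49-fold with the longest GENCODE transcript of each gene (edgeR adjusted p = 8.24e-06) and 1.01-fold without a length term (edgeR adjusted p = 0.713). Efnb3 was at 4.72, 4.59, 4.40 and 7.58 CPM, high in culture 4 with no overlap.

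Among the lipid-anchored ephrins Efna5, a ligand that guides retinal axons in topographic maps, was at 34.6, 32.4, 31.9 and 35.3 CPM and 5.83 ± 0.286 RPKM. Efna4 was at 5.38, 4.66, 5.01 and 6.23 CPM and 3.33 ± 0.42 RPKM. Efna5 was 1.75-fold above Efna4 per length (log2 ratio 0.81 ± 0.07 (SE), edgeR adjusted p = 4.36e-05; 4 of 4 libraries), and 6.33-fold without the length term. Efna2, Efna3 and Efna1 lay together at 0.932, 0.848 and 0.842 RPKM, and none of the 3 pairs among them passed the test (edgeR adjusted p = 0.458 for Efna1 and Efna2, 0.441 for Efna2 and Efna3 and 0.905 for Efna1 and Efna3). Efna1, Efna3 and Efna4 are neighbours on chromosome 3 with no other protein-coding gene between them, and Efna4 was 3.92-fold above Efna3 and 4.02-fold above Efna1 per length, in 4 of 4 libraries (edgeR adjusted p = 1.45e-05 and 3.2e-05).

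All 5 EphB receptor genes were expressed. Ephb2 (GeneID 13844, chromosome 4, 136647536 to 136836326, minus strand), a receptor of ephrin-B ligands, was at 167, 172, 181 and 144 CPM and 15.0 ± 1.43 RPKM, lowest in culture 4. Ephb4 was at 32.7, 29.5, 33.3 and 35.8 CPM and 7.53 ± 0.587 RPKM. Per length Ephb2 was 1.99-fold above Ephb4 (log2 ratio 0.99 ± 0.09 (SE), edgeR adjusted p = 3.73e-05; 4 of 4 libraries), and 5.04-fold without the length term. Ephb3 stood at 5.49 ± 0.230 RPKM, Ephb1 at 1.68 ± 0.293 RPKM and Ephb6, whose kinase domain is inactive, at 1.13 ± 0.181 RPKM.

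Of 9 EphA receptor genes 5 were expressed. Epha4, which binds ligands of both ephrin classes and is known from astrocytes and from repulsion of corticospinal axons, had 62.5, 62.3, 61.1 and 82.8 CPM or 10.5 ± 1.64 RPKM, with culture 4 above the other 3. Epha2 had 37.0, 38.5, 42.01 and 31.5 CPM or 8.94 ± 1.05 RPKM, with culture 4 below them. Their ratio was 1.10, 1.06 and 0.951 in cultures 1 to 3 and 1.72 in culture 4, and the pair was not told apart (log2 ratio 0.23 ± 0.14 (SE), edgeR adjusted p = 0.147), which left EphA as the single family without a leading member. Without the length term Epha4 was 1.80-fold above Epha2 (edgeR adjusted p = 0.001). Epha5 followed at 2.18 ± 0.266 RPKM. Epha3 and Epha6 were expressed at 2.09 ± 0.526 CPM and 1.10 ± 0.0943 CPM; the combined exon length of Epha6, 26376 bases, was 6.71 times its longest GENCODE transcript, and its RPKM is lower by that factor than with the transcript's length.

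Class 3 semaphorins, the secreted ones, were expressed for 6 of 7 genes. Sema3c had 72.5, 70.3, 70.1 and 59.7 CPM, or 13.8 ± 1.16 RPKM, and Sema3f had 41.4, 41.0, 44.6 and 36.7 CPM, or 8.24 ± 0.657 RPKM. Culture 4 was the lowest for both. Sema3c, a cue that can attract cortical axons, was 1.67-fold above Sema3f, a ligand of neuropilin-2 (log2 ratio 0.74 ± 0.04 (SE), edgeR adjusted p = 3.56e-06; 4 of 4 libraries). With GENCODE transcript lengths the ratio was 1.03 and the call was lost (edgeR adjusted p = 0.368). Sema3b stood at 6.03 ± 1.03 RPKM, Sema3e at 3.30 ± 0.603 RPKM, Sema3a, the collapsing factor first known as collapsin, at 2.50 ± 0.154 RPKM and Sema3d at 0.206 ± 0.0491 RPKM. Sema3d differed most among cultures 1 to 3 of all expressed members, at 1.85, 1.27 and 1.13 CPM, and was the single one whose highest of these was over 1.5-fold above the lowest.

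All 6 class 4 semaphorins were expressed. Sema4b had 47.9, 47.0, 49.1 and 46.8 CPM, or 11.5 ± 0.245 RPKM, and varied little. Sema4d, a ligand of plexin-B1, had 41.3, 39.95, 41.6 and 30.1 CPM, or 6.33 ± 0.906 RPKM, with culture 4 below the rest. Sema4b was 1.83-fold above Sema4d (log2 ratio 0.87 ± 0.08 (SE), edgeR adjusted p = 4.82e-05; 4 of 4 libraries). The lead was 1.43-fold with GENCODE lengths and 1.26-fold without the length term. Sema4g and Sema4c stood at 3.83 ± 0.286 RPKM and 2.51 ± 0.155 RPKM, and Sema4a and Sema4f at 0.372 ± 0.0298 RPKM and 0.266 ± 0.0212 RPKM.

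In class 5, whose proteins carry thrombospondin repeats, Sema5b had 80.9, 83.8, 89.0 and 112 CPM, or 17.6 ± 2.73 RPKM, and Sema5a 55.7, 60.6, 57.0 and 45.7 CPM, or 4.84 ± 0.562 RPKM. Culture 4 was the highest for Sema5b and the lowest for Sema5a, so that their ratio was 3.00 to 3.39 in cultures 1 to 3 and 5.33 in culture 4. Over all cultures Sema5b was 3.61-fold above Sema5a (log2 ratio 1.85 ± 0.14 (SE), edgeR adjusted p = 1.53e-05; 4 of 4 libraries), and 1.66-fold without the length term. In class 6 Sema6d had 193, 193, 184 and 166 CPM, or 10.9 ± 0.757 RPKM, and Sema6a 93.3, 93.7, 91.7 and 74.4 CPM, or 2.64 ± 0.278 RPKM. Sema6d was 4.12-fold above Sema6a (log2 ratio 2.04 ± 0.04 (SE), edgeR adjusted p = 2.13e-08; 4 of 4 libraries). The combined exons of Sema6a, 33451 bases, are 4.88 times its longest GENCODE transcript, and the lead was 2.23-fold with GENCODE lengths and 2.09-fold without the length term. Sema6b and Sema6a were not told apart per length (edgeR adjusted p = 0.0959). Sema6c stood at 0.720 ± 0.0989 RPKM. Sema7a, a lipid-anchored semaphorin that binds plexin-C1 and integrins, had 41.4, 43.2, 44.2 and 34.5 CPM, or 10.5 ± 1.12 RPKM.

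Of 9 plexin genes 8 were expressed. Plxnb2 (GeneID 140570, chromosome 15, 89155546 to 89182018, minus strand) was the most abundant of all 69 genes, at 660.2, 647, 671 and 632 CPM, or 74.5 ± 1.92 RPKM, the 142nd highest CPM among protein-coding genes. Plxnb1 had 260.3, 252, 265 and 279 CPM, or 22.1 ± 0.922 RPKM. Both encode receptors of class 4 semaphorins. Plxnb2 was 3.37-fold above Plxnb1 (log2 ratio 1.75 ± 0.05 (SE), edgeR adjusted p = 6.56e-08; 4 of 4 libraries). Plxna1 had 163, 160.0, 160.5 and 156 CPM, or 17.7 ± 0.313 RPKM, and Plxna2 56.4, 57.5, 56.8 and 59.6 CPM, or 5.18 ± 0.129 RPKM. These receptors, which pair with neuropilins or bind class 6 semaphorins, varied little between cultures, and Plxna1 was 3.42-fold above Plxna2 (log2 ratio 1.77 ± 0.04 (SE), edgeR adjusted p = 3.7e-08; 4 of 4 libraries). Plxna3 stood at 3.22 ± 0.116 RPKM and Plxna4, the plexin known for the action of Sema3a on sensory neurons, at 0.359 ± 0.0825 RPKM. Plxnc1, the receptor of Sema7a, had 21.4, 23.2, 20.1 and 23.5 CPM, or 2.75 ± 0.198 RPKM. Plxnd1, the receptor of Sema3e, had 161, 166, 171 and 102 CPM, or 20.6 ± 4.44 RPKM, and was low in culture 4 alone.

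Both neuropilins, the coreceptors of class 3 semaphorins and of VEGF, were expressed. Nrp1 (GeneID 18186, chromosome 8, 128358591 to 128505476, plus strand) had 94.0, 90.9, 89.8 and 65.2 CPM, or 8.78 ± 1.37 RPKM, and Nrp2 (GeneID 18187, chromosome 1, 62703317 to 62818692, plus strand) 34.4, 35.5, 33.6 and 15.4 CPM, or 3.66 ± 1.18 RPKM. Culture 4 was the lowest for both and did not overlap with the others. Nrp1 was 2.48-fold above Nrp2 (log2 ratio 1.31 ± 0.12 (SE), edgeR adjusted p = 4.71e-05; 4 of 4 libraries), by 2.15 to 2.29 in cultures 1 to 3 and 3.55 in culture 4. With GENCODE transcript lengths the lead was 5.46-fold.

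All 3 slit genes were expressed. Slit2 had 58.3, 54.9, 57.4 and 58.4 CPM, or 4.82 ± 0.137 RPKM, and Slit3 20.8, 18.9, 20.5 and 10.95 CPM, or 3.56 ± 0.927 RPKM. Slit2 was flat over the cultures, while Slit3 was low in culture 4. Slit2 was 1.39-fold above Slit3 (log2 ratio 0.47 ± 0.16 (SE), edgeR adjusted p = 0.0297; 4 of 4 libraries), by 1.18 to 1.22 in cultures 1 to 3 and 2.24 in culture 4. The call was lost without culture 2 or 3 and with cultures 1 to 3 summed as 1 sample (edgeR adjusted p = 0.054, 0.0525 and 0.0516), and the lead was 3.30-fold without the length term. Slit1 stood at 0.293 ± 0.0202 RPKM. Robo2 had 61.7, 62.5, 58.9 and 56.9 CPM, or 2.81 ± 0.120 RPKM, and Robo1 19.3, 20.5, 19.2 and 25.4 CPM, or 1.94 ± 0.267 RPKM. Robo2 was 1.46-fold above Robo1 (log2 ratio 0.54 ± 0.09 (SE), edgeR adjusted p = 0.00119; 4 of 4 libraries), by 1.14 in culture 4 and 1.56 to 1.63 in the others. That lead was 2.51-fold with GENCODE lengths and 2.86-fold without the length term, and it missed the threshold with cultures 1 to 3 summed (edgeR adjusted p = 0.0501).

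Netrin genes held the most abundant ligands per length. Ntn1 (GeneID 18208, chromosome 11, 68209364 to 68386826, minus strand) had 345, 352, 363 and 428 CPM, or 64.8 ± 6.61 RPKM, highest in culture 4. Ntn4, a netrin of basement membranes, had 106, 108, 110.2 and 112 CPM, or 45.1 ± 1.06 RPKM. Ntn1 was 1.43-fold above Ntn4 (log2 ratio 0.52 ± 0.05 (SE), edgeR adjusted p = 7.24e-05; 4 of 4 libraries), and 3.41-fold without the length term. Ntn3 stood at 4.06 ± 0.247 RPKM and Ntn5 at 0.197 ± 0.0456 RPKM. Of the receptors, Dcc had 0.657, 0.723, 0.643 and 0.543 CPM, under the level in every culture, 103 counts in all. Unc5b had 56.4, 69.4, 67.2 and 47.0 CPM, or 10.2 ± 1.77 RPKM, and Unc5c 18.8, 18.9, 16.1 and 18.2 CPM, or 1.93 ± 0.138 RPKM. Unc5b, also a receptor of blood vessels, was 5.25-fold above Unc5c (log2 ratio 2.39 ± 0.12 (SE), edgeR adjusted p = 1.62e-06; 4 of 4 libraries), and 3.29-fold without the length term. Unc5d and Unc5a stood at 0.222 ± 0.0475 RPKM and 0.0622 ± 0.0165 RPKM. Neo1, which encodes neogenin, the paralogue of DCC, and is not one of the 69, had 306 ± 18.2 CPM, and Rgma, the ligand of neogenin, 86.3 ± 6.64 CPM.

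Across the 15 families of at least 2 genes, 121 of 126 tested pairs of paralogues differed, where 95.0% of 18540 pairs of the whole table did, so the share among guidance genes was near that background. A leading member, above every other gene of its family in the test and in each library, was found in 14 of 15 families, against 91.4% of 2497 families of the table. The 5 pairs that did not pass were the 3 among Efna1, Efna2 and Efna3, Epha4 with Epha2, and Sema6a with Sema6b. Without culture 4, 124 of 129 pairs passed and 14 families had a leading member, with p-values that measure only the spread of 3 close libraries. The top gene by mean level was the same in all 15 families under each of the 11 settings tried, among them GENCODE lengths and no length term.

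**Figure D3:**
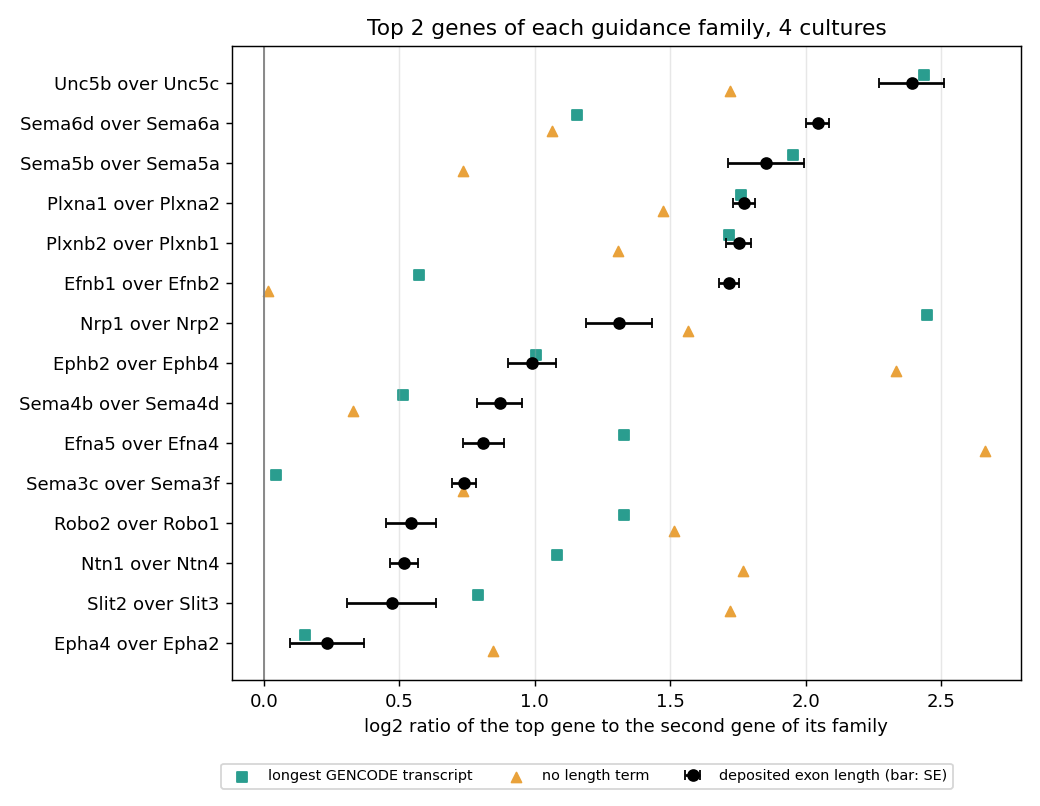
Log2 ratio (horizontal axis) of the top gene to the second gene of each family over 4 cultures, as fitted by edgeR with the deposited exon length (black points, bars ± SE), with the longest GENCODE transcript (squares) and without a length term (triangles). All points lie to the right of 0, and Efnb1 over Efnb2 falls from 1.72 to 0.02 without the length term.

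Effectors and partners of these ligands and receptors were widely present. Of 113 genes of 5 partner lists, 107 (94.7%) were expressed, against the 58.1% of all protein-coding genes. The lists were chosen with earlier results of these data known, so the higher share is a description and no test. Expressed were 21 of 22 Eph and ephrin effectors, led per length by Adam10, a protease that cuts ephrins (255 ± 6.63 CPM), the phosphatase gene Ptpn11 (218 ± 2.08 CPM) and the kinase gene Fyn (198 ± 5.23 CPM). Among semaphorin and plexin effectors 30 of 33 were expressed, led by Itgb1 (1709 ± 47.9 CPM), Rap1b (181 ± 7.39 CPM) and Dpysl3, of the CRMP family (373 ± 15.4 CPM). All 18 slit and robo partners were expressed, led by Dag1, which encodes the slit-binding dystroglycan (829.8 ± 31.2 CPM), and the syndecans Sdc4 and Sdc3 (228 ± 22.3 CPM and 375 ± 18.9 CPM). Of netrin, DCC and RGM partners 24 of 26 were expressed, led by Maged1 (845 ± 84.3 CPM), Neo1 and the focal adhesion kinase gene Ptk2 (163 ± 16.8 CPM).

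The cultures differed most in culture 4. Among 59 members with a mean of at least 1 CPM, 8 (13.6%) were over 1.5-fold lower there than the mean of cultures 1 to 3 and 1 (1.69%) was over 1.5-fold higher. Over all protein-coding genes the shares were 6.01% and 2.05%. Median log2 differences were -0.06 for members and 0.02 for protein-coding genes. Culture 4 is 1 library and was singled out from its values, so no test was made.

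The 8 lower genes were Nrp2, Plxnd1, Plxna4, Sema3e, Sema6b, Slit3, Epha3 and Epha7. The other class 3 and class 6 semaphorin genes with a mean of at least 1 CPM were lower too but not past the fold. They ranged from 1.13-fold lower for Sema3a to 1.42-fold lower for Sema3b. Between these were Sema3f, Sema3c, Sema6a and Sema6c, 1.15-fold, 1.19-fold, 1.249-fold and 1.28-fold lower, among others. Nrp2 was at 15.4 CPM in culture 4 against 33.6 to 35.5 CPM elsewhere, 2.24-fold lower. Plxnd1 and its ligand gene Sema3e were at 102 CPM in culture 4 against 161 to 171 CPM elsewhere (1.63-fold lower), and at 16.5 CPM in culture 4 against 24.3 to 25.1 CPM elsewhere (1.501-fold lower). Plxna4 was at 3.07 CPM in culture 4 against 4.56 to 5.45 CPM elsewhere, and Sema6b, whose protein binds plexin-A4, at 6.70 CPM in culture 4 against 10.998 to 12.9 CPM elsewhere. The repellent gene Slit3 was at 10.95 CPM in culture 4 against 18.9 to 20.8 CPM elsewhere, 1.83-fold lower. Low in counts were Epha3, at 1.35 CPM in culture 4 against 2.09 to 2.48 CPM elsewhere, and Epha7, at 0.968 CPM in culture 4 against 1.31 to 1.62 CPM elsewhere. The single gene over 1.5-fold higher was Efnb3, at 7.58 CPM in culture 4 against 4.40 to 4.72 CPM elsewhere, 1.66-fold higher. In all 9 the value of culture 4 lay outside the range of the other 3, but that was common. Among the 59 members, culture 4 was below this range in 30 (50.8%) and above it in 23 (39.0%). Over protein-coding genes with a mean of at least 1 CPM the shares were 37.3% and 45.3%. Nrp2 alone was over 2-fold lower, and it had the highest BCV of the 64 genes, 0.277. That BCV takes in the same low value of culture 4, while over cultures 1 to 3 the SD of its log2 CPM was 0.04. Sema3e lay at the threshold, with Sema3b just outside it at 1.42-fold lower; Efna1 and Unc5d, 1.44-fold and 1.44-fold higher, were just outside on the other side. The 9 genes were the same with TMM-scaled library sizes and with DESeq2 size factors. Sema3e left the list without culture 1 and Epha7 without culture 2, whereas Efna1 joined the higher genes without culture 1 and Unc5d without culture 3.

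**Figure D4:**
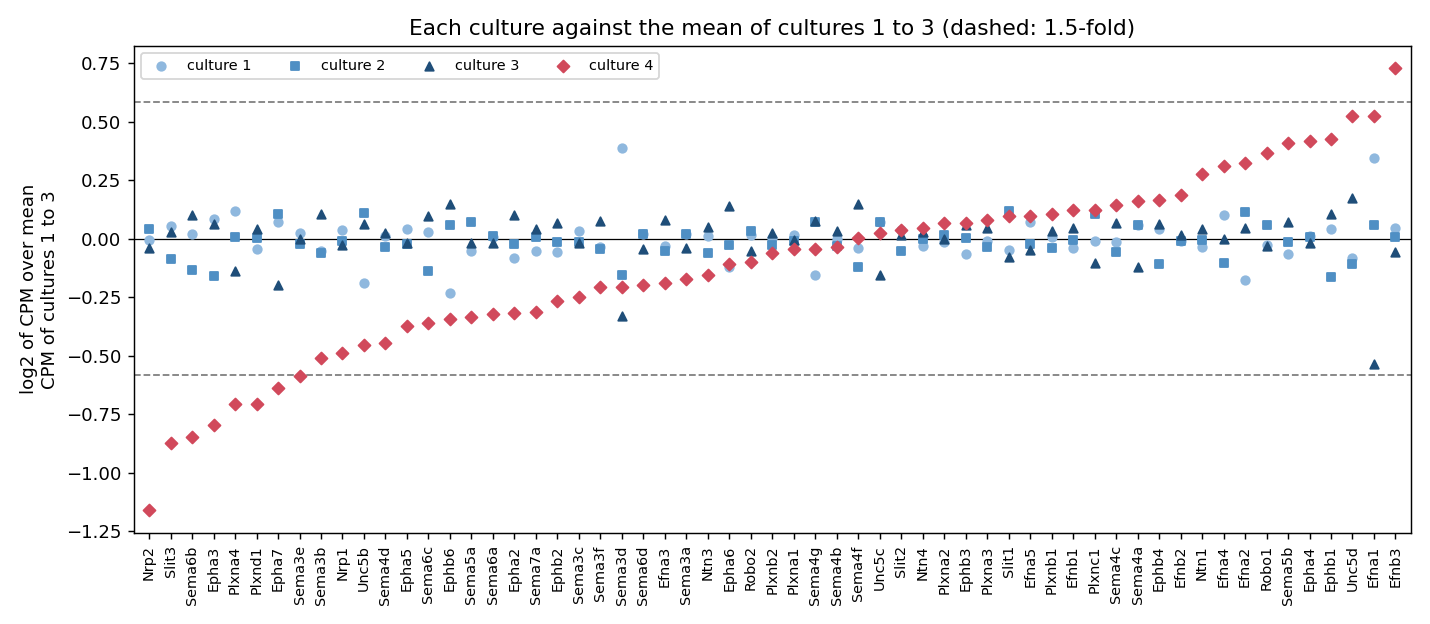
Log2 of the CPM of each culture over the mean CPM of cultures 1 to 3 (vertical axis) for 59 genes with a mean of at least 1 CPM, ordered by culture 4 (diamonds), with dashed lines at 1.5-fold. Diamonds run from -1.16 for Nrp2 to 0.73 for Efnb3, while cultures 1 to 3 stay within the dashed lines.

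Marker genes of several cell types also differed in culture 4, often in only part of a list. Fibroblast and meningeal markers summed to 3088 to 3269.7 CPM in the first 3 cultures and 2102 in culture 4. Of these 13 genes 9 were expressed, 5 were over 1.5-fold lower and Pdgfra was higher. Col1a1 was at 570.1 to 623 CPM against 72.4 CPM. Islr and Fn1, the highest by mean CPM, moved less, at 821 to 856 against 777 CPM and 768 to 839 against 691 CPM. Microglial markers summed to 208 to 217 CPM in the first 3 cultures and 141 in culture 4, 9 of 10 expressed, with 6 lower. Endothelial markers, 2 of 9 expressed, were low throughout, at 14.3 to 15.8 CPM in the first 3 cultures and 8.50 in culture 4, and Flt1, which encodes a VEGF receptor, was at 6.06 to 6.58 CPM against 1.53 CPM. Of 10 neuronal markers 5 were expressed, with sums of 410.4 to 426 CPM in the first 3 cultures and 393 in culture 4. Tubb3 and Nefm were over 1.5-fold lower. Map2 and Stmn2, the highest by mean CPM, were at 201 to 223 against 214 CPM and 146 to 154 against 142 CPM. Of 9 mural markers 5 were expressed, with sums of 3040.5 to 3222 CPM in the first 3 cultures and 2936 in culture 4. Rgs5 alone was over 1.5-fold lower. Acta2 and Tagln, the highest by mean CPM, were at 1851 to 1973 against 1950 CPM and 1038 to 1096 against 876 CPM. Oligodendrocyte markers, 3 of 8 expressed and Opalin without a count, summed to 223 to 243 CPM in the first 3 cultures and 204 in culture 4. Ependymal markers, 5 of 8 expressed, summed to 213 to 233 CPM in the first 3 cultures and 215 in culture 4. Markers of oligodendrocyte precursors, 5 of 7 expressed, summed to 1533 to 1582 CPM in the first 3 cultures and 1689.6 in culture 4, with Bcas1 lower and Pdgfra, which is on this list as well, higher. The astrocyte list summed to 7449.7 to 7629 CPM in the first 3 cultures and 6432 in culture 4, with Gfap and S100b over 1.5-fold lower. All 10 proliferation genes were above the mean of the others in culture 4, with sums of 1731 to 1760.1 CPM in the first 3 cultures and 2283 in culture 4. The part of cell makeup, of the lower Gfap or of the proliferation genes in the values of the 9 guidance genes was not tested.

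No partner gene was over 1.5-fold higher in culture 4, and 4 of 107 were lower, a smaller share than the 6.01% of all protein-coding genes. Among them were Chl1, a coreceptor with neuropilin-1 for Sema3a, at 154 to 160.1 CPM against 94.3 CPM, the CRMP gene Dpysl4, at 30.3 to 30.5 against 19.2 CPM, and the adenosine receptor gene Adora2b, at 5.71 to 6.52 against 1.37 CPM. Chl1 and Dpysl4 belong to the semaphorin list. The median log2 difference of that list was small, at -0.09, against 0.02 over protein-coding genes. Medians were 0.03 for the Eph list, 0.03 for the slit list and -0.14 for the netrin list.

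Promoter windows are shown for 4 of the 8 genes that were low in culture 4, chosen after their values were seen: the coreceptor gene Nrp2, the receptor gene Plxnd1, its ligand gene Sema3e and the repellent gene Slit3. Each runs 5′ to 3′ along the gene from 250 bases before to 50 after a RefSeq start site (build GRCm38.p6), and capitals mark GC boxes (GGGCGG or its reverse complement CCGCCC). The start site used is the 5′ end of the deposited gene for Nrp2, Sema3e and Slit3 and lies 334 bases from it for Plxnd1.
Nrp2, chr1:62703067-62703366, plus strand: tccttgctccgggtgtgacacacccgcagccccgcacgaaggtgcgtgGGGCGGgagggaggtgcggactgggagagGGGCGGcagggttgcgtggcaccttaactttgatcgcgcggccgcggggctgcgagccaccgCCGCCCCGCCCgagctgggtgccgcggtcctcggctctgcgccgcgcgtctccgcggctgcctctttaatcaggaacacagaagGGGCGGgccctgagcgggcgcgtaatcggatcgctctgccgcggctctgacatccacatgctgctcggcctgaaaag
Plxnd1, chr6:115994956-115995255, minus strand: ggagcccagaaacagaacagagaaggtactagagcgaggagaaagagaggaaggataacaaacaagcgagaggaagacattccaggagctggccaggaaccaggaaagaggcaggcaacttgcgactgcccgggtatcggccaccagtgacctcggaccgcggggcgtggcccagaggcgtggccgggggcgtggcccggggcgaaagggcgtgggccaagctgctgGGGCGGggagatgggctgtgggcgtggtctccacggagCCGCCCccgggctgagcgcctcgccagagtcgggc
Sema3e, chr5:14025026-14025325, plus strand: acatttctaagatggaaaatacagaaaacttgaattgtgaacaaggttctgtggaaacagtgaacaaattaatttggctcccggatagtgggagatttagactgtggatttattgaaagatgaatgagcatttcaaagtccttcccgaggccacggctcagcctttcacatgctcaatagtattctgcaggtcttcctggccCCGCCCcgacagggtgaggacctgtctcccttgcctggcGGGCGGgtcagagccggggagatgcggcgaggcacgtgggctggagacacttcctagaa
Slit3, chr11:35121206-35121505, plus strand: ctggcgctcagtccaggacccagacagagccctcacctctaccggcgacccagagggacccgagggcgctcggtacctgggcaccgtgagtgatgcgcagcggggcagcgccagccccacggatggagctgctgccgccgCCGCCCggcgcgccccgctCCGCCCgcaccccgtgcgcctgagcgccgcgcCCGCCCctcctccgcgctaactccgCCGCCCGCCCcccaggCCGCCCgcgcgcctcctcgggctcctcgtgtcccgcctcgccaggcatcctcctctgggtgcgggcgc
The 4 windows held 5, 2, 2 and 6 GC box matches in this order, some adjoining or overlapping, and none held a CCAAT box (CCAAT) or a TATA box (TATAAA), searched on both strands. Their GC content was 70.7%, 67.0%, 50.7% and 78.3%. A GC box is common: of 59 members with a window, 43 (72.9%) held one, as did 72.9% of 48 expressed members, 65.9% of 10240 expressed protein-coding genes (1 window each, the nearest to the deposited start) and 35.7% of all 32851 windows. A CCAAT box was in 27.1% of the expressed members and 39.5% of the expressed protein-coding genes, and in 37.4% of all windows. A TATA box was in 4.17%, 6.65% and 13.6%. These are matches of letters, not sites of binding.

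Neighbouring members were in part far apart in level. Ephb2, at 166 CPM, and Epha8, with 1 count in all, are 93.1 kb apart on chromosome 4 with 3 protein-coding genes between them. Robo2 and Robo1 are neighbours on chromosome 16, 844 kb apart, at 60.0 and 21.1 CPM, whereas Robo3 and Robo4, 2.02 kb apart on chromosome 9, had 0.101 and 0.0679 CPM. On chromosome 5 Sema3d, Sema3a and Sema3e follow each other, with no protein-coding gene between the first pair and 3 between the second, at 1.37, 21.9 and 22.6 CPM. Of this group Sema3e alone was over 1.5-fold lower in culture 4, and Sema3d and Sema3a were 1.15-fold and 1.13-fold lower.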

How the data were processed

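Poly-A RNA-seq libraries of 4 cultures (1 group) were used. The deposited table gives estimated counts per gene, since 31.7% of values above 0 are not exactly whole, with exon lengths and coordinates. Per the submitters' processing notes the build was GRCm38.p6, and featureCounts of Subread (1.6.4), the aligner STAR (2.7.2b), cutadapt (1.17) and bcl2fastq (2.20.0.422) were used, with no settings or strand option stated. The kit marks strand, per the labels' protocols. CPM used library sums, RPKM the deposited length. A single count was 0.0236 to 0.0268 CPM; floors cover counting error only, as PCR copies are not independent molecules.

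Paralogues were compared with edgeR 4.0.16 (quasi-likelihood, two-sided) on rounded counts of gene pairs, with library and gene as terms and library sum times exon length as offset. All protein-coding pairs sharing a symbol stem entered (the symbol less its final number, or less a final letter after a digit; families of 2 to 20 genes, at least 1 expressed), with Benjamini-Hochberg adjustment over 18540 pairs at 0.05. SE is the log2 ratio over the square root of F. The procedure was tested on simulated data that gave all 4 libraries the same spread. That test therefore did not cover the distance of culture 4 from the others. BCV used TMM scaling. Alternatives were DESeq2 1.42.0, GENCODE lengths, other levels, folds and scalings, and leaving out cultures.

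Values in every culture are given for the top 2 genes of a family by mean RPKM, genes without a family and those past 1.5-fold in culture 4; partners named are the 3 highest per length of a list and those past 1.5-fold, and markers the 3 highest by CPM or those past 1.5-fold, except that markers of other cells were picked as examples after their values were seen. Members and lists were chosen with earlier results of these data known. The values of 1 partner list and of 1 partner gene are not reported here.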

Additional observations from a re-analysis of the deposited data

Results flagged for a closer look

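In 10 of 57 expressed guidance genes the value of 1 culture stood apart from the other 3 by Dixon's criterion at the 95% level, and in all 10 it was that of culture 4. It was the lowest for Nrp2 (15.4 against 33.6 to 35.5 CPM), Sema3e (16.5 against 24.3 to 25.1 CPM), Epha5 (17.4 against 22.2 to 23.2 CPM), Plxnd1 (102 against 161 to 171 CPM), Nrp1 (65.2 against 89.8 to 94.0 CPM), Sema4d (30.1 against 39.95 to 41.6 CPM) and Sema6a (74.4 against 91.7 to 93.7 CPM). It was the highest for Epha4 (82.8 against 61.1 to 62.5 CPM), Efnb2 (85.1 against 74.3 to 75.7 CPM) and Efnb3 (7.58 against 4.40 to 4.72 CPM). The share, 17.5%, was close to the 15.6% of all expressed protein-coding genes, where chance alone flags about 1 group in 20.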

How the results depend on the processing

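The count of expressed members, of 69, was 45 with RPKM and 50 with TPM of at least 1 in place of CPM, 61 at 0.5 CPM, 64 at 10 counts, and 57 to 58 with each culture left out. Of all protein-coding genes 51.3%, 56.6%, 61.1% and 63.9% met these levels in the same order. With each culture left out it was 58.2% to 59.1%. Of 126 pairs of paralogues 121 also passed with DESeq2, 120 without a length term, 116 with GENCODE lengths, 116 with cultures 1 to 3 summed as 1 sample, and 119 to 120 with culture 1, 2 or 3 left out; without culture 4 it was 124 of 129, with both genes expressed 81 of 84, and with no filter beyond 10 counts 125 of 133. Of all protein-coding pairs, 17537 of 18540 passed without a length term and 17124 of 18021 with GENCODE lengths. It was 16589 of 18589 with cultures 1 to 3 summed and 18248 of 18883 without culture 4. Leaving out culture 1, 2 or 3 gave 17266 of 18553, 17268 of 18551 and 17323 of 18559. With both genes expressed it was 11721 of 12528, and 19772 of 21427 with no filter beyond 10 counts. Families with a leading member numbered 12 to 14 over all these settings. Of all families, 2102 of 2503 had one with cultures 1 to 3 summed and 2408 of 2523 without culture 4. The members over the fold in culture 4 were 0 higher and 1 lower of 59 at 2-fold, where the background was 0.437% and 1.99%, and 8 higher and 16 lower at a fold midway between 1 and 1.5, where the background was 9.07% and 12.8%. With culture 1, 2 or 3 left out they were 1 to 2 higher and 7 to 8 lower. The median BCV of members fell to 0.0252 without culture 4. Of the log2 ratios of top pairs under 10 other settings each, 143 kept their direction and side of the threshold, 6 fell below it and 1 (Epha4 to Epha2 without the length term) passed it, and none changed direction. Mean CPM with TMM scaling or a culture left out was added after seeing the data and moved by under 1 SD in every expressed member. Leaving out 1 of 4 cultures can never move a mean by 1 SD, so that part of the check could not come out otherwise. No paired analysis was possible because the series has 1 group. Precision for genes under about 1 CPM is limited by depth, where 3 counts are 0.0708 to 0.0804 CPM.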
